A study of Mus musculus with 4 samples.

Results

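The intervals described here are the distal ATAC-seq peaks of mouse brain macrophages that were called in 1 of 4 libraries only. ATAC-seq maps accessible chromatin with the Tn5 transposase, which cuts and tags open DNA. The authors merged the peaks of 4 libraries into 74695 intervals, and each interval carried the number of library-level peaks, or subpeaks, that had been combined in it. The members were chosen by this number and by position. An interval belonged to the set if it lay on chromosomes 1 to 19, held 1 subpeak, had its centre more than 1000 bp from both ends of every RefSeq protein-coding gene and lay at most 100 kb from such a gene. This gave 11939 single-call distal intervals, which is 16.0% of all merged intervals. They made up 22.1% of the 53924 distal intervals of any number of subpeaks (95% exact binomial interval 21.8 to 22.5), and the other 41985 distal intervals held 2 or more subpeaks.

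The libraries came from sorted macrophages of the brain parenchyma in 2 groups of 2, MDM and YSM. MDM stands for monocyte-derived macrophages, after the series title, and YSM is not spelled out in the labels. All 4 libraries shared the genotype label Ms4a3-Ai9 and the treatment label DR-3x, whose meaning is not given in the sources used here. Ms4a3 is expressed in progenitors of granulocytes and monocytes, and the Ai9 allele gives red fluorescence once Cre has acted in a cell. It is not stated whether libraries of the same group are separate animals. The merged list gave no value per library, so the library behind each single call, the depth of the libraries and the spread between replicates were not analysed here, and no test was run. The authors also deposited 2 lists of differential intervals, tied by their names to the MDM and the YSM group. Exact binomial intervals are given for shares. They cover counting error only, and neighbouring intervals are not independent.

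The single call was checked on the coordinates. All 15127 merged intervals with 1 subpeak had the same width, that of an unmerged peak. Of these, 14713 lay on chromosomes 1 to 19, where 1910 were within 1000 bp of a gene end and 864 were more than 100 kb from a gene. Just inside the distance rule were single-call intervals at Akap9, Mpeg1 and Sulf2, at 1001, 1002 and 1002 bp from the gene end. Just outside it were those at Cers4, Sub1 and Syna, at 999, 1000 and 1000 bp. At the far limit, Ccnd2, Ppp6c and Spring1 were kept at 99579, 99630 and 99887 bp from the gene body, while Cdc42ep3, Stxbp6 and Bcl6 were left out at 100083, 100214 and 100460 bp. A distal interval of any kind was present at 33 of 35 microglial identity genes, 18 of 21 border-associated macrophage genes and 24 of 32 monocyte and monocyte-derived macrophage genes. Among other cell types it was 15 of 27 neuron genes matched, 11 of 18 for astrocytes, 14 of 18 for the oligodendrocyte lineage and 16 of 22 for endothelium and mural cells. For lymphocytes it was 16 of 26 and for neutrophils and mast cells 12 of 21. These counts do not set every macrophage list apart from other cell types, and accessible chromatin near a gene is not a measure of its expression.

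Accessible sites away from gene starts are where enhancers lie. Enhancers are stretches of DNA that bind transcription factors and act on the promoter of a gene at a distance. In macrophages the factor PU.1, encoded by Spi1, binds many of them together with factors of the AP-1, RUNX, IRF and MEF2 families, and in microglia SALL1 is known to maintain the identity of the cells.

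Sequence could be read only where a single-call interval overlapped a start window in the RefSeq promoter table of GRCm38.p6, which covers 250 bases before to 50 bases after each annotated start. These windows exist for 18 of the 19 chromosomes used here, with 11561 single-call distal intervals. Of these, 173 (1.5%) touched a start window, against 4.58% of the distal intervals with 2 or more subpeaks. By class the share was 2.11% with 2 subpeaks, 2.31% with 3 and 5.64% with 4 or more. A low share was thus not particular to a single call. Single-call intervals are narrower than the others, and these shares are not adjusted for width. The windows touched by single-call intervals belonged to protein-coding genes for 97 intervals and to long non-coding RNA genes for 81. Since every member lay more than 1000 bp from the outer ends of protein-coding genes, a protein-coding start touched here is an alternative start within the gene. The intervals wholly inside a window numbered 38, of which 21 were at protein-coding genes and 17 at long non-coding RNA genes.

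The 6 sequences below are whole single-call intervals on alternative starts, shown because they differ widely in base composition and sit in genes with known roles in macrophages or in signalling. They were chosen after their values were seen. Each is written 5′ to 3′ on the strand of its gene, from RefSeq, build GRCm38.p6 (mm10), and capitals mark a motif match on either strand. The motifs searched were PU.1 GGAAGT, AP-1 TGANTCA, RUNX TGTGGTT, the E-box CACGTG and the CTCF core AGGGGGC, and none of these words contains another.
Mgat1 chr11:49250304-49250504, plus strand: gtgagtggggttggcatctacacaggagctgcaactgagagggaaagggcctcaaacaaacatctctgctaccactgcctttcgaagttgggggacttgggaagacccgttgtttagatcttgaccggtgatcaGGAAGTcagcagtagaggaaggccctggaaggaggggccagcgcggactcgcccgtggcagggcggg
Cacna1d chr14:30353468-30353668, minus strand: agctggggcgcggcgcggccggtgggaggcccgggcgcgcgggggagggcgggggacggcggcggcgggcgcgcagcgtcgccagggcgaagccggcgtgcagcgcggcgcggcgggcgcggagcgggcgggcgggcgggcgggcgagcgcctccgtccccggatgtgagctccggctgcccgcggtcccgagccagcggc
Grap2 chr15:80623268-80623468, plus strand: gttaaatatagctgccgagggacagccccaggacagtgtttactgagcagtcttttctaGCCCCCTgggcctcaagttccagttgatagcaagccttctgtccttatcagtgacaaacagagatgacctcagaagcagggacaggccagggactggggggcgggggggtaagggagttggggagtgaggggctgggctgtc
Mef2a chr7:67372901-67373101, minus strand: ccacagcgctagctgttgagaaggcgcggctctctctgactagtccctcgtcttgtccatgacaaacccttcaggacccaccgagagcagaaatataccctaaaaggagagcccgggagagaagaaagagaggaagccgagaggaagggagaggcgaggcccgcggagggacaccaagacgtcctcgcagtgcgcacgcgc
Adam8 chr7:139992564-139992764, minus strand: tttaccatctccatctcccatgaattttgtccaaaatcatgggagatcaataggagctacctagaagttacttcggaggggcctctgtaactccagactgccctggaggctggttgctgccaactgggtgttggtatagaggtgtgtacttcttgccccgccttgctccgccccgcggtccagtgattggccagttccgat
Acp5 chr9:22131868-22132068, minus strand: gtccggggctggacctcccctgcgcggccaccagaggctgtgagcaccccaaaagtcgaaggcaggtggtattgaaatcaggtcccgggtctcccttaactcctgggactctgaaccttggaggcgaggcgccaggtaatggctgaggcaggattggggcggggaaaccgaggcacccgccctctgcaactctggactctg

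Mgat1 encodes the enzyme that opens the synthesis of complex N-glycans, and its interval had 58.7% G and C bases and the 1 PU.1 match of the 6. Cacna1d encodes a voltage-gated calcium channel, and its interval was the richest of the 6 in G and C at 87.1%, with 42 CpG dinucleotides. Grap2, an adaptor of immune receptor signalling, had a CTCF core match, read on the opposite strand, and 57.2% G and C. The interval of Mef2a, one of the MEF2 factors active in microglia, had 60.2% G and C and 15 CpG. Adam8 encodes a cell-surface metalloprotease of leukocytes and had 53.2% G and C, the lowest of the 6. Acp5, the tartrate-resistant acid phosphatase of osteoclasts and macrophages, had 63.7%. None of these 6 intervals was in the MDM or the YSM list, which held 0.145% and 1.48% of all merged intervals.

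Of the single-call intervals on a start window, 0 were MDM-listed and 2 were YSM-listed. The part of each that lies in its window is printed because these are the listed intervals for which bases could be read. Gm10406 is a predicted protein-coding gene, and the interval on the predicted gene Gm52520 was assigned to Olfr1028, the nearest protein-coding gene, 6343 bp away.
Gm10406 chr14:7027400-7027471, minus strand: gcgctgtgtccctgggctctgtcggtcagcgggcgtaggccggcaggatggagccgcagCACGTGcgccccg
Gm52520 chr2:85958282-85958330, plus strand: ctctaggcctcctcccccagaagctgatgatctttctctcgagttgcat

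The Gm10406 stretch of 72 bases had 75.0% G and C and held the E-box, and the Gm52520 stretch of 49 bases had 53.1% and none of the motifs. Over whole windows, those touched by a single-call interval were less rich in G and C than those touched by an interval of 2 or more subpeaks. The median was 56.0% in the windows touched by single-call intervals, against 59.0% in the 2046 windows touched by the others and 52.7% in all 32817 windows. The ratio of observed to expected CpG had a median of 0.475, against 0.658 and 0.383. A PU.1 match was in 26.9% of the windows touched by single-call intervals, against 29.4% of those touched by the others and 23.8% of all windows. The CTCF core was in 11.9%, against 17.2% and 10.6%, and the E-box in 6.47%, against 9.87% and 7.15%. AP-1 matches were in 5.97%, against 6.74% and 7.81%, and RUNX matches in 4.98%, against 4.15% and 5.27%. A match is a run of letters and does not show that the factor binds, and a window can be touched at 1 edge only.

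Single-call distal intervals lay mostly inside genes, somewhat farther from gene ends than the other distal intervals. Inside a protein-coding gene were 7554 of them, or 63.3% (62.4 to 64.1), against 61.7% of those with 2 or more subpeaks. By number of subpeaks the share was 64.6% with 2, 61.8% with 3, 60.9% with 4 to 6 and 63.3% with 7 or more, so it did not follow the number of calls in order. The median distance to the nearest gene end was 17499 bp (quartiles 7278 and 40114 bp), against 15591 bp (6376 and 36923 bp). The 4385 single-call intervals outside genes lay at a median of 16029 bp from the gene, against 14859 bp. Exons and introns could not be told apart with the annotation used.

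The strand of the nearest gene was known for 3431 of the intervals outside genes. Of these, 1827 (53.2%) were upstream of the gene, at a median of 17990 bp, and 1604 (46.8%) were downstream, at a median of 13208 bp. Among distal intervals with 2 or more subpeaks outside genes, 55.8% were upstream.

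The share of distal intervals that had a single call was higher far from gene ends and in long genes. Distance to a gene end was taken from inside or outside the gene, so these trends overlap and were not separated. At 1 to 2 kb from a gene end it was 20.4% (19.1 to 21.7), at 2 to 5 kb 19.6%, at 5 to 10 kb 21.6%, at 10 to 50 kb 22.6%, at 50 to 100 kb 23.5% and beyond 100 kb, which only the inside of long genes reaches, 25.5% (23.8 to 27.3). Outside the distal set the same order went on, with a single call at 12.2% of the intervals within 1000 bp of a gene end and at 25.7% of those more than 100 kb from any gene. By length of the assigned gene the share was 20.7% (19.7 to 21.8) for genes of up to 10 kb and 27.6% (25.5 to 29.7) for genes over 500 kb, with 21.0%, 21.8%, 22.9% and 25.3% in the classes between. It did not follow how many distal intervals a gene had, since it was 21.5% at genes with 1, 23.4% with 2 to 4, 21.9% with 5 to 9, 21.5% with 10 to 19 and 22.1% with 20 or more.

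Many single-call intervals had a close neighbour, and more of them than of the other distal intervals also stood alone. Between centres, the nearest other merged interval had a median distance of 2735 bp, and for distal intervals with 2 or more subpeaks it was 3338 bp. A neighbour within 500 bp was found for 3257 single-call intervals, or 27.3%, against 16.2%. That share was 22.8% with 2 subpeaks, 20.4% with 3, 13.8% with 4 to 6 and 14.0% with 7 or more. At the other end, 312 single-call intervals (2.61%) had no merged interval within 50 kb, against 1.36% of the others. By class it was 2.3% with 2 subpeaks, 1.92% with 3, 1.02% with 4 to 6 and 0.996% with 7 or more. The closest neighbours abutted, at 12 intervals, and the most isolated interval was 2028296 bp from the next.

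**Figure D1:**
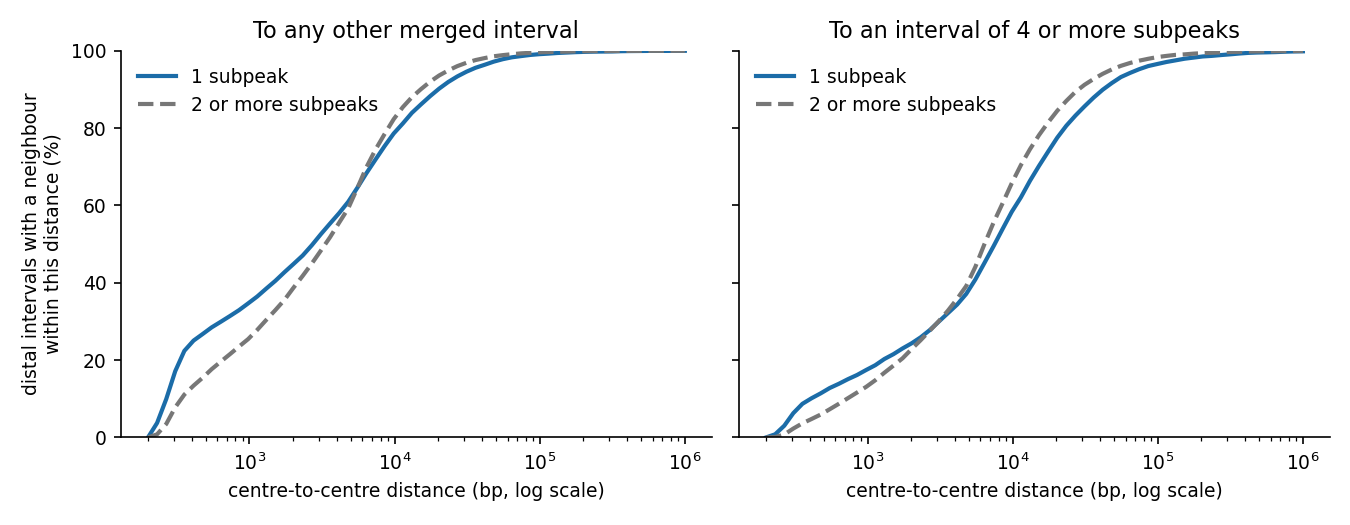
Share of distal intervals (vertical axis, percent) whose nearest other merged interval (left) or nearest merged interval of 4 or more subpeaks (right) lies within the distance on the horizontal axis (bp between centres, log scale), for intervals with 1 subpeak (solid blue) and with 2 or more (dashed grey). On the left the single-call curve is above at short distances, with 27.3% against 16.2% at 500 bp, and below the other at long ones. Single-call intervals are narrower than the others, and the curves are not adjusted for width.

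The close neighbours were of every kind. Among the 3257 single-call intervals with a neighbour within 500 bp, the nearest had 4 or more subpeaks for 1354 (41.6%) and 1 subpeak for 1026 (31.5%), while 468 had a nearest neighbour of 2 subpeaks and 409 one of 3. Among the distal intervals with 2 or more subpeaks and such a neighbour, these shares were 37.8% for 4 or more and 33.7% for 1. Pairs of single-call distal intervals within 500 bp that were each other's nearest neighbour accounted for 950 intervals.

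Measured against the sites that at least 4 calls marked, single-call intervals were both near and far. The nearest interval of 4 or more subpeaks had a median distance of 7539 bp, against 6394 bp where distal intervals held 2 or more. It was within 1 kb for 17.6%, against 13.3%, and more than 100 kb away for 404 intervals (3.38%), against 1.62%. By class, the share beyond 100 kb was 3.82% with 2 subpeaks, 1.82% with 3, 1.06% with 4 to 6 and 1.09% with 7 or more. A place far from such sites was thus not particular to a single call. The single-call share of distal intervals was 27.3% within 1 kb of such an interval, 18.1% at 1 to 10 kb, 24.5% at 10 to 50 kb, 30.3% at 50 to 100 kb and 37.2% (34.4 to 40.2) beyond 100 kb. It was thus lowest at middle distances.

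Single-call intervals were spread over all 19 chromosomes. Their share of the distal intervals ran from 20.4% on chromosome 7 to 23.9% on chromosome 14, and the exact interval of 16 of the 19 chromosomes held the overall share of 22.1%. Chromosome 2 had the highest count, 1022, and chromosome 19 the lowest, 369.

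The assigned genes numbered 6067, or 52.9% of the 11472 genes with a distal interval of any kind. Of these, 3385 had 1 single-call interval, 2268 had 2 to 4, 372 had 5 to 9 and 42 had 10 or more, and the 42 held 4.3% of the set.

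The genes with the highest counts were long genes that hold many sites of every kind. Bach2, a transcriptional repressor best known in lymphocytes, and Lpp, a LIM-domain protein of focal adhesions, had 16 each, out of 59 and 64 distal intervals. With 15 each followed Maml3, a co-activator of Notch signalling, with 43 distal intervals, the zinc-finger factor gene Rreb1 with 44, Runx2, the runt factor of bone formation, with 36, and Zfhx3, a zinc-finger homeobox gene, with 67. Those with 14 were Asap1, which encodes a GTPase-activating protein for Arf, with 50, and Tbc1d22a, a gene of the TBC-domain family, with 41. Dock4 and Elmo1, which act in Rac activation and engulfment, had 14 of 47 and 14 of 60. Foxp1, a forkhead factor that regulates monocyte differentiation, had 14 of 57, and Akap13, an anchor of protein kinase A, 13 of 50.

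Among these 12 genes the single-call share ran from 22.4% at Zfhx3 to 41.7% at Runx2. All of the single-call intervals of Maml3, Runx2, Dock4, Foxp1 and Tbc1d22a lay inside the gene, and those of the other 7 reached up to 78460 bp from it, at Zfhx3. Per 100 kb of gene, the intervals inside numbered 7.49 at Rreb1 and 1.76 at Zfhx3, the highest and lowest of the 12. None of the 12 had an MDM-listed single-call interval, and Asap1 was the 1 with a YSM-listed one. At the overall shares of 0.0168% and 0.41%, such counts are near the background.

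**Figure D2:**
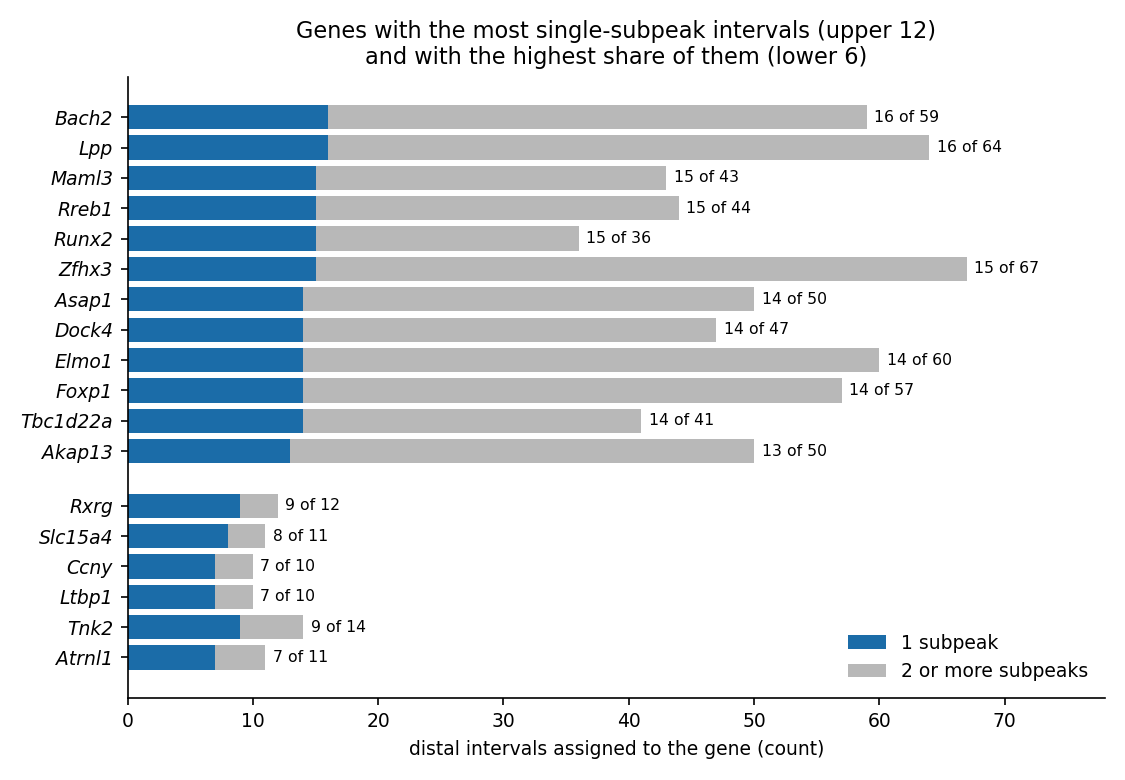
Distal intervals assigned to a gene (horizontal axis, count) at the 12 genes with the most single-call intervals and at the 6 genes with the highest single-call share among those with at least 10 distal intervals, split into 1 subpeak (blue) and 2 or more (grey). Bach2 and Lpp reach 16 single-call intervals, and at Rxrg they are 9 of 12.

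Among the 1388 genes with at least 10 distal intervals, the quartiles of the single-call share were 13.3 and 29.2%. At 26 genes it was 50% or more, and 62 had none. Rxrg, the gamma form of the retinoid X receptors that pair with other nuclear receptors, had 9 of 12 (75.0%). Slc15a4, a lysosomal transporter needed for signalling by nucleic acid sensing Toll-like receptors, had 8 of 11. Ccny, which encodes cyclin Y, and Ltbp1, which encodes a protein that binds latent TGF-beta, had 7 of 10 each. The tyrosine kinase gene Tnk2 had 9 of 14 and the attractin-like gene Atrnl1 7 of 11.

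At the other end was Nav1, a neuron navigator gene, with 0 of 20, the Ras exchange factor gene Rasgrp3 and the endocytic adaptor gene Ston2 with 0 of 18 each, and Gm826, Mapre2 and Phf21a with 0 of 17 each. Mapre2 encodes a protein of microtubule ends, and Phf21a a protein of a histone demethylase complex. At Rxrg the 9 intervals ran over the gene and both of its flanks, with 3 inside it and the farthest 46505 bp away. Of its 3 other distal intervals all 3 were YSM-listed, and of its 9 single-call intervals 1 was.

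Genes of 19 lists of macrophage biology and of other cell types held 656 single-call intervals among 2958 distal intervals, or 22.2%, close to the overall 22.1%. Of 526 listed genes 521 were matched by symbol. The exact interval of 17 of the 19 lists held the overall share, and the lists of neurons and of astrocytes were the 2 exceptions. No list gene had an MDM-listed single-call interval, and 4 of the 656 were YSM-listed, 2 at Marco and 1 each at Rxrg and Nfia. Over all single-call distal intervals the shares listed were 0.0168% (MDM) and 0.41% (YSM), and these counts are near them.

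**Figure D3:**
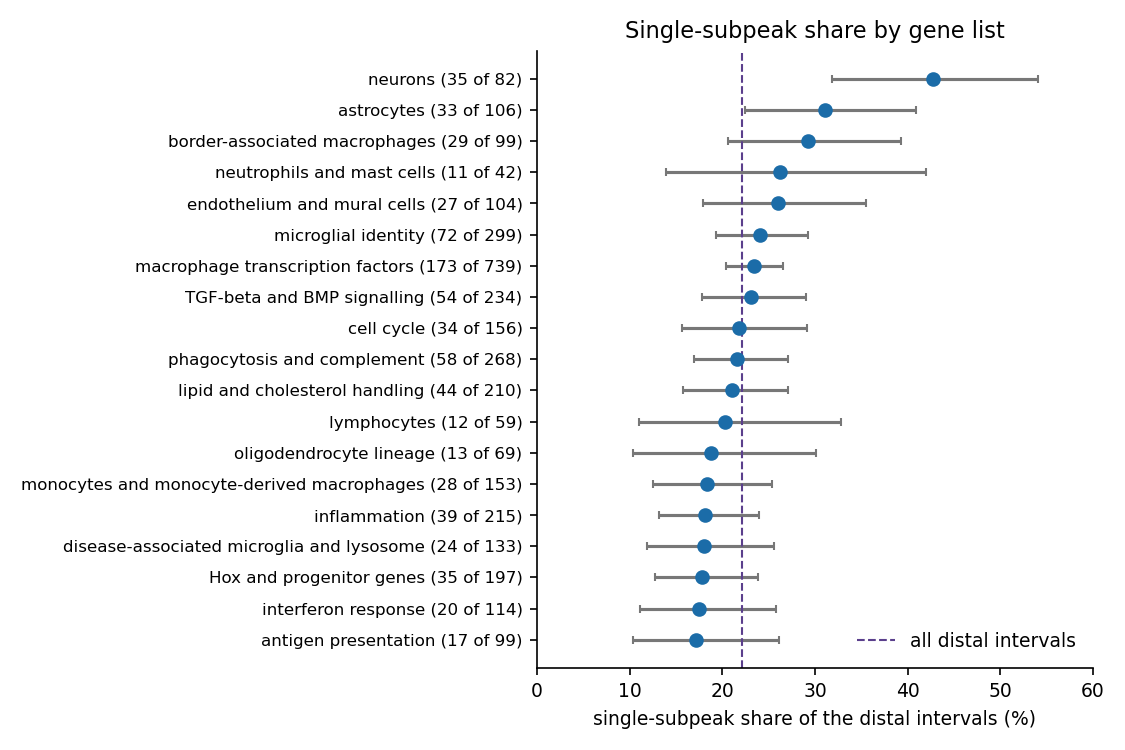
Share of each gene list's distal intervals that had a single call (horizontal axis, percent, points) with its exact 95% binomial interval (bars). The counts follow the list names, and the dashed line marks 22.1% over all distal intervals. Neurons and astrocytes lie to the right of the line and the other 17 lists overlap it.

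In the microglial identity list 72 of 299 distal intervals (24.1%) had a single call, at 20 of its 33 genes with a distal interval. Mef2c, a MEF2 factor gene, had most, with 9 of 34, and Mef2a and the navigator gene Nav3 followed with 7 of 22 and 7 of 16. Sall1 and its paralogue Sall3 had 4 of 10 each. Several genes used to mark microglia had none, with 0 of 8 at the purine receptor gene P2ry12, 0 of 4 at the fractalkine receptor gene Cx3cr1, 0 of 3 at Csf1r, the receptor of the main macrophage growth factor, and 0 of 1 at Tmem119. The lectin receptor gene Siglech had 1 of 7. Apart from Mef2c and Mef2a, the genes in this paragraph were picked after their values were seen, and with fewer than 10 distal intervals 0 is compatible with a wide range of shares.

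The macrophage transcription factor list was the largest, with 173 of 739 (23.4%) at 45 of 57 genes. Bach2 led it, followed by Tcf4, an E protein, with 13 of 39, and Rxrg. Spi1 had 0 of 2, and Irf8, the interferon regulatory factor that macrophages need, had 1 of 26, values again picked after they were seen. The monocyte and monocyte-derived macrophage list had 28 of 153 (18.3%), most at the hyaluronan receptor gene Cd44 with 4 of 16 and the integrin gene Itga4 with 4 of 12. Border-associated macrophage genes had 29 of 99 (29.3%, 20.6 to 39.3), with 9 of 27 at the endocytic adaptor gene Dab2 and 4 of 5 at Timd4, which encodes a receptor for phosphatidylserine.

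In the lists of macrophage functions the shares stayed between 17.2% and 23.1%. TGF-beta and BMP signalling had 54 of 234 (23.1%), with 7 at Ltbp1 and 6 of 20 at the inhibitory Smad6. Phagocytosis and complement had 58 of 268 (21.6%), with 14 at Elmo1, 5 of 23 at the integrin gene Itgb5 and 5 of 8 at Marco, a scavenger receptor. Lipid and cholesterol handling had 44 of 210 (21.0%), with 5 of 27 at the cholesterol exporter gene Abca1 and 4 of 16 at Lrp1. Inflammation had 39 of 215 (18.1%), with 7 of 24 at Nfkb1 and 4 of 9 at Il6. Disease-associated microglia and lysosome genes had 24 of 133, with 4 of 12 at the proton pump gene Atp6v0d2 and 3 of 10 at Igf1.

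Interferon response genes had 20 of 114 (17.5%), with 6 of 22 at the interferon gamma receptor gene Ifngr1 and 2 of 5 at the RNA sensor gene Ifih1. Antigen presentation had 17 of 99 (17.2%), with 4 of 13 at Ciita, the master activator of MHC class II genes, and 2 of 6 at the co-stimulatory Cd80. Cell cycle genes had 34 of 156 (21.8%), with 5 of 14 at both Mki67 and Rb1. Hox and progenitor genes had 35 of 197 (17.8%), with 10 of 38 at Runx1 and 5 of 39 at Etv6. The exact intervals of all these lists held 22.1%.

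Among genes of other cell types, neuron genes had the highest share, 35 of 82 (42.7%, 31.8 to 54.1), at 10 of 15 genes with a distal interval. Rbfox1, a neuronal splicing regulator, had 11 of 23, and Cntnap2, a neurexin-like adhesion gene, 7 of 13. Without these genes, of 1528 and 2241 kb, the list had 17 of 46 (37.0%). The share was 27.6% over all genes longer than 500 kb and 25.3% over those of 250 to 500 kb. Most of the 46 distal intervals were at genes of less than 500 kb. No exact interval was computed for the 37.0%, so an excess over these shares was not tested. Celf4 had 6 of 12, Dlg2 3 of 5, and Rbfox3, a marker of neuronal nuclei, 0 of 7, values picked after they were seen. The length of these genes and a part of neuronal chromatin in the libraries cannot be told apart here. The library behind each single call was not analysed here.

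Astrocyte genes had 33 of 106 (31.1%, 22.5 to 40.9), led by the nuclear factor I gene Nfia with 12 of 38 and the glutamate transporter gene Slc1a3 with 9 of 23. Without these 2 genes it was 12 of 45 (26.7%). Neutrophil and mast cell genes had 11 of 42 (26.2%), with 2 of 4 at the chemokine receptor gene Cxcr2 and 2 of 3 at the collagenase gene Mmp8. Endothelial and mural cell genes had 27 of 104 (26.0%), with 6 of 6 at Abcc9, a potassium channel subunit of mural cells, and 3 of 9 at Pdgfrb. Lymphocyte genes had 12 of 59 (20.3%), with 4 of 18 at Ets1 and 2 of 7 at Lef1, and oligodendrocyte lineage genes 13 of 69 (18.8%), with 5 of 20 at Bcas1 and 2 of 5 at Cspg4.

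Single-call distal intervals were rare in both differential lists. The number of calls and the lists come from the same 4 libraries, so presence in a list is not independent of the rule and is given as a description. In the MDM list were 2 of the 11939 (0.0168%, 0.00203 to 0.0605), where 0.145% of all merged intervals were listed. In the YSM list were 49 (0.41%, 0.304 to 0.542), where 1.48% of all merged intervals were listed. With members within 1000 bp of another merged interval left out, 7764 remained, of which 0 were MDM-listed and 18 (0.232%) YSM-listed. Of all distal intervals 0.152% were in the MDM list and 1.56% in the YSM list.

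The 2 lists differed in how their shares followed the number of calls. MDM-listed were 0.0168% of the distal intervals with 1 subpeak, 0.0729% with 2, 0.0813% with 3, 0.212% with 4 to 6 and 0.996% with 7 or more, so the share was higher in each class. The exact intervals of neighbouring classes overlapped up to 4 to 6 subpeaks, and that of 7 or more (0.498 to 1.78) stood above the others. YSM-listed were 0.41% with 1 subpeak, 5.89% with 2, 2.52% with 3, 0.822% with 4 to 6 and 0.543% with 7 or more, so the share was highest with 2 calls. The exact interval with 1 call (0.304 to 0.542) lay within that with 7 or more (0.2 to 1.18) and below those of the other classes. Single-call distal intervals made up 1.85% of the 108 intervals of the MDM list and 4.44% of the 1104 of the YSM list. Of the distal intervals in each list they were 2.44% of 82 and 5.81% of 843.

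**Figure D4:**
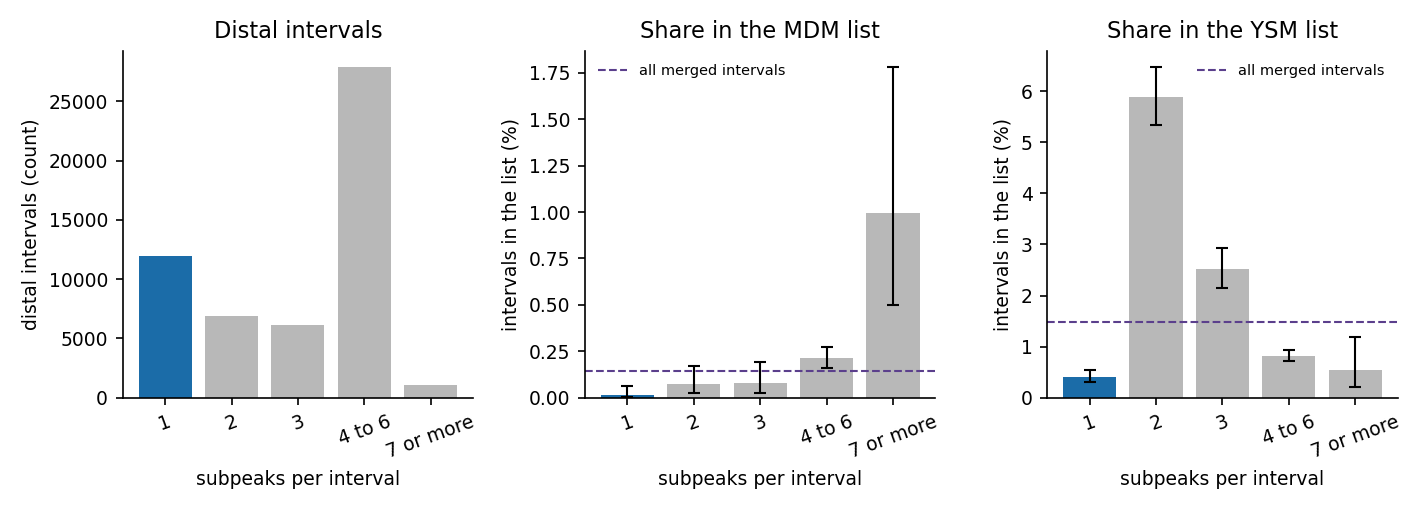
Distal intervals by number of subpeaks (left, count) and the share of each class in the MDM list (middle, percent) and the YSM list (right, percent), with exact 95% binomial intervals as bars, single-call intervals in blue and the share of all merged intervals as a dashed line. Single-call intervals lie below the line in both lists, and the YSM share is highest, at 5.89%, with 2 subpeaks.

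The 2 MDM-listed intervals lay next to sites of more calls that were not listed. The first was inside Slx4ip, which encodes a partner of the SLX4 nuclease scaffold, at chr2:136936620-136936820 (mm10), with its nearest neighbour 268 bp away and of 4 subpeaks. The other was at chr7:33900301-33900501, 42596 bp from the secretoglobin gene Scgb2b26, with its nearest neighbour 257 bp away and of 7 subpeaks. At both genes the listed interval was the 1 MDM-listed distal interval, out of 17 and 4. With 2 intervals no pattern over genes can be given.

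The 49 YSM-listed intervals belonged to 44 genes, and 35 of them (71.4%) lay inside a gene, against 63.2% of the 11888 single-call intervals in neither list. Their distance to a gene end ran from 1211 to 156244 bp, with a median of 8084 bp. Genes with more than 1 were Klf12 with 3 and Tanc1, Marco and Nr2f1 with 2 each. Chromosome 14 held 7 of the 49 among 493 single-call intervals, and chromosomes 1 and 2 held 5 each among 863 and 1022. Of the 7, 3 were at Klf12 and 1 each at the predicted genes Gm2974, Gm10406 and Gm10044, which are uncertain as said below. Chromosomes 8 and 19 held none among 554 and 369. At a listed share of 0.41%, nothing can be read from a 0 on a chromosome.

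At Klf12, a Krüppel-like transcription factor gene on chromosome 14, all 7 single-call intervals were inside the gene and 3 were YSM-listed. They lay at chr14:100222303-100222503, chr14:100283428-100283628 and chr14:100284484-100284684, the last 2 at 2363 and 1307 bp from the gene's higher end. Each had a YSM-listed neighbour, at 1887, 1056 and 311 bp. Of the 13 distal intervals of Klf12 8 were YSM-listed, so 5 of the other 6 were.

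At Tanc1, a scaffold gene of synapses, the listed intervals chr2:59842876-59843076 and chr2:59843091-59843291 were neighbours with centres 215 bp apart, inside the gene. At the scavenger receptor gene Marco, chr1:120467192-120467392 and chr1:120467510-120467710 lay 318 bp apart and 7246 and 6928 bp from the gene. The 3 other distal intervals of Marco were all YSM-listed too, and its 3 other single-call intervals were not. At Nr2f1, the nuclear receptor COUP-TFI, chr13:78236658-78236858 and chr13:78237148-78237348 stood on either side of a YSM-listed interval of 2 subpeaks, 37885 and 38375 bp from the gene.

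**Figure D5:**
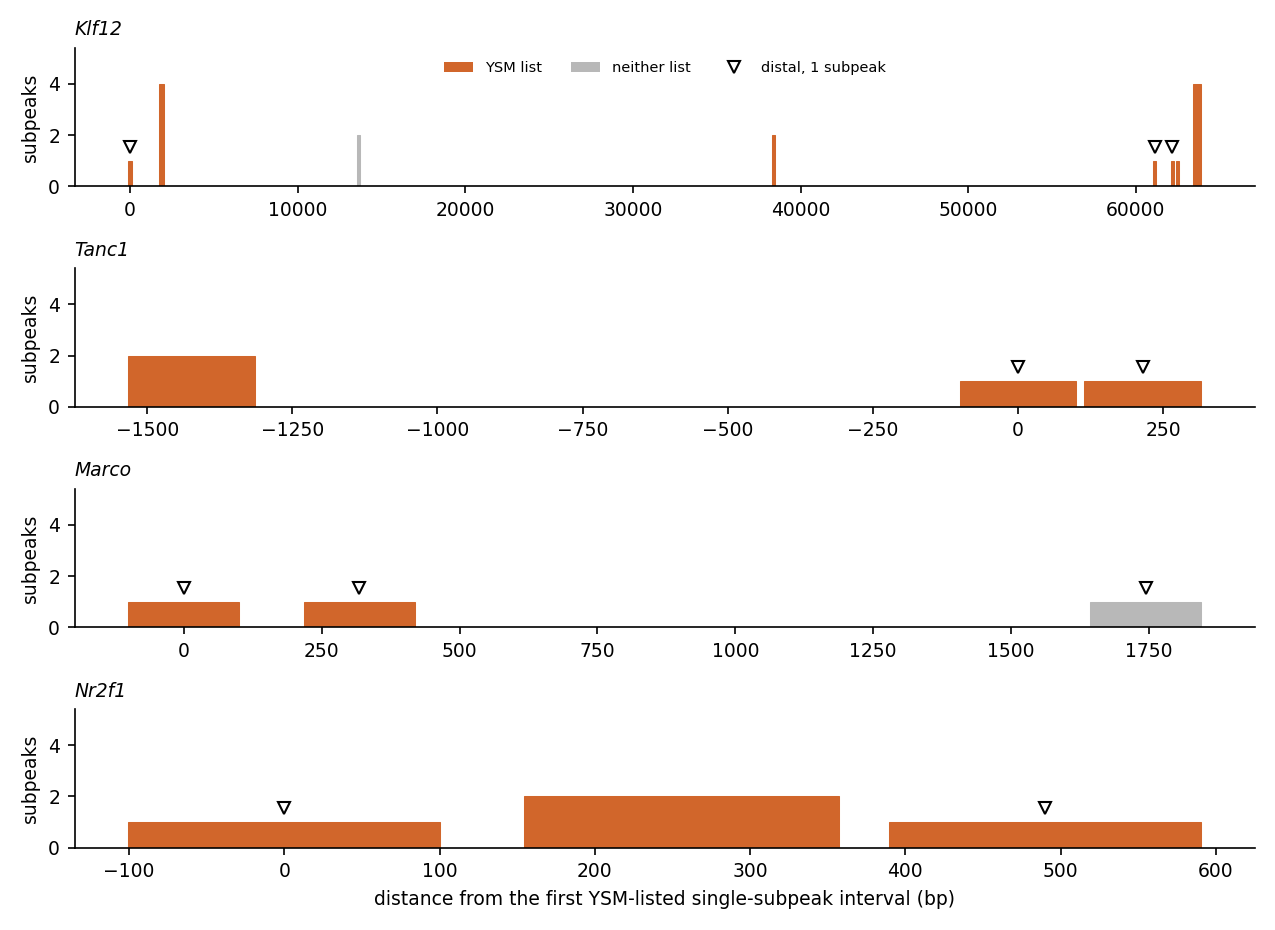
Merged intervals around the YSM-listed single-call intervals of Klf12, Tanc1, Marco and Nr2f1, drawn to scale by distance from the first of them (horizontal axis, bp) and by number of subpeaks (vertical axis), in orange for the YSM list and grey for neither list, with triangles on single-call distal intervals. Listed single-call intervals stand beside other listed intervals at all 4 genes, which were chosen for holding 2 or more of them. Of all 49 YSM-listed single-call intervals, 17 had no YSM-listed interval within 50 kb. The single-call bar at Klf12 without a triangle is within 1000 bp of the gene end.

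The other 40 genes had 1 YSM-listed single-call interval each. Among them were Prox1, the homeobox factor of lymphatic endothelium, Ebf3, Nfia, Rxrg, Prdm6 and the neuronal zinc-finger gene Myt1l, together with the nuclear receptor co-repressor gene Nrip1. The Prox1 interval, chr1:190168953-190169153, lay inside the gene 1774 bp from its end and 353 bp from another YSM-listed interval. The Rxrg interval, chr1:167590130-167590330, was 8132 bp from the gene. The Nfia interval, chr4:97663013-97663213, stood 57029 bp from its nearest neighbour, inside the gene, with the nearest YSM-listed interval 260944 bp away.

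Other genes with 1 were the phosphatase gene Ptprm, the sidekick adhesion gene Sdk1, the diacylglycerol kinase gene Dgki, the neurabin gene Ppp1r9a, the Csk-binding adaptor gene Pag1, Git2, Asap1 and Pde4dip. The same held for Srrm4, a neuronal splicing factor gene, Tafa1, which encodes a secreted protein of the brain, Crhbp, the binding protein of corticotropin-releasing hormone, and Basp1. Adarb1, an RNA-editing deaminase gene, and Npl, an enzyme gene of sialic acid breakdown, each had 1, as did the olfactory receptor gene Olfr1028 and the fragile-site gene Fhit. The remaining genes were Accsl, Trpc4ap, D630045J12Rik, Tulp2, Efl1, Tmc7, Lrrc49, Aagab, Cdrt4, Myo15b, Ccdc57, Gpatch2l, Clmn, Ppp1r13b, Gm2974, Gm10406 and Gm10044. Gm2974, Gm10406 and Gm10044 are predicted genes on the proximal end of chromosome 14, at chr14:4179877-4180077, chr14:7027271-7027471 and chr14:7749608-7749808. Whether reads there map to 1 place only is not given in the sources used here, so these 3 are uncertain.

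A larger share of the YSM-listed single-call intervals than of those in neither list had a close neighbour, and many of the neighbours were listed too. A merged interval within 500 bp was present for 28 of 49 (57.1%), against 27.1% of the single-call intervals in neither list, and for 21 of the 28 that nearest interval was itself YSM-listed. Another YSM-listed interval lay within 1000 bp of 24 and within 50 kb of 32 (65.3%), against 7.6% (904 of 11888) of the intervals in neither list within 50 kb. The other 17 had no YSM-listed interval within 50 kb. The nearest interval of 4 or more subpeaks lay at a median of 17044 bp, against 7529 bp. It was more than 100 kb away for 12 (24.5%), against 3.3%, but within 1 kb for 5 of the 49 and at 1 to 10 kb for 14.

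At genes where an interval of more calls was YSM-listed, a small share of the single-call intervals was listed. Such genes numbered 569, and 33 of their 1212 single-call intervals (2.72%) were YSM-listed, against 794 of their 4051 distal intervals with 2 or more subpeaks (19.6%), which chose these genes. At all other genes 16 of 10727 single-call intervals (0.149%) were listed. For the MDM list such genes numbered 75, with 0 of 170 single-call intervals listed, against 80 of 709 (11.3%) with 2 or more subpeaks, and 2 of 11769 at all other genes. Among genes with several YSM-listed sites, picked after their values were seen, YSM-listed single-call intervals were 3 of 7 at Klf12, 2 of 5 at Marco, 1 of 5 at Ptprm, 0 of 4 at Sall1, 0 of 7 at Nav3, 0 of 4 at Sall3, 0 of 6 at the junction scaffold gene Magi1 and 0 of 9 at Slc1a3. With a listed share of 2.72% at such genes, nothing can be read from a 0 at any of them.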

How the data were processed

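The 4 ATAC-seq libraries (MDM and YSM, 2 each) were processed by the authors with Trimmomatic 0.39, Bowtie2 2.2.5, Picard and HOMER on mm10, per the submitters' processing notes. Peaks were called per library and merged with HOMER mergePeaks, per the file headers. For caller settings and any Tn5 shift the sources used here give nothing. The deposited score column held 1 in every merged interval and was not used. The authors made 2 differential lists, tied to DESeq2 by their names, and deposited them with no readable fold change or p-value.

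From these files, interval centres were placed against 20665 RefSeq protein-coding genes of GRCm38.p6 on chromosomes 1 to 19 with Python 3.11.15, pandas 2.3.3, NumPy 2.4.6 and SciPy 1.17.1, and each was assigned to the nearest gene. List presence meant identical coordinates. Coordinates are 1-based. Distance code was tested on simulated data. Named genes were the 12 with the most members, up to 12 by YSM-listed members, every gene with an MDM-listed member, the 6 highest and 6 lowest shares, and 2 per list, ties by position. Every other gene with a YSM-listed member was named after values were seen, as were genes said to be picked so. The members and lists were chosen with earlier results of these data known. Alternatives varied gene distance, gene kind, assignment, overlap and neighbours. Depth per library was not analysed here, so precision is given as exact binomial intervals for counting error only.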

Additional observations from a re-analysis of the deposited data

How the results depend on the processing

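Of 49 alternative values over 20 results, 39 stayed within the margin set for them, 10 moved and 0 reversed. The share inside genes was 67.8% with genes of every annotated kind and 67.2% within 50 kb of a gene body. With members within 1000 bp of another merged interval left out, 7764 members remained, 62.3% of them inside genes, 0 (0%) were MDM-listed and 18 (0.232%) YSM-listed. Counting intervals of at least 4 subpeaks only, the median distance to the nearest was 7539 bp. With every protein-coding gene within 50 kb in place of the nearest, 11454 genes had a member, and the 12 genes named for their counts had 12 to 16. The main setting had 2 MDM-listed members and 0.41% YSM-listed, so both were lower with close neighbours left out. Why the 10 values moved was not tested.

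Leaving out a library and a stricter peak threshold were not run, since the lists hold no value per library and no usable score. No paired analysis was possible because the columns carry no replicate values. The depth of the libraries and the library behind each call were not analysed here. Bases were read only in annotated start windows. Motifs at most members were not analysed here.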

Other observations

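At 870 of the 11472 genes with a distal interval, every distal interval had a single call. For 692 of them that was 1 interval, out of 3216 genes with 1 distal interval (21.5%), near the overall share of 22.1%. Of the 870, 32 had 3 or more. Abcc9, which encodes a potassium channel subunit of mural cells, had 6 of 6, with 2 inside the gene. The BMP receptor gene Bmpr1a and the amino acid transporter gene Slc38a8 had 5 of 5, all inside. Myo5c, an unconventional myosin gene, and Sgms2, a sphingomyelin synthase gene, had 4 of 4 inside, while Appbp2, Serpinb10 and Neurog1, a proneural factor gene, had 4 of 4 outside. None of these intervals was in the MDM or the YSM list. With few intervals per gene, such genes are named for their counts and were not tested.

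Single-call intervals linked by gaps of at most 2000 bp formed 10237 runs of 1, 740 of 2, 66 of 3 and 6 of 4. The 6 longest were at Lnpep (chr17:17608659-17610049), Jarid2 (chr13:44839178-44840642), Slc38a8 (chr8:119489601-119491220), Cd248 (chr19:5071880-5073850), Tbc1d22a (chr15:86292265-86294245) and Cdkn2a (chr4:89270663-89273070), in mm10. At Lnpep, Jarid2, Slc38a8 and Cdkn2a the run held no other merged interval, whereas at Cd248 it spanned 5 merged intervals and at Tbc1d22a 7. None of these 6 runs held a listed interval.

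Genome-wide, 2 single-call intervals were MDM-listed and 77 YSM-listed, so 28 YSM-listed ones lay outside the distal set. Of these, 15 were within 1000 bp of a gene end, where 0.785% of single-call intervals were YSM-listed, 12 were more than 100 kb from a gene, where 1.39% were, and 1 was not on chromosomes 1 to 19.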
